A study of Mus musculus with 35 samples.

Results

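*Peg3*, *Usp29*, *Zim1*, *Snrpn*, *Ndn*, *Magel2* and *Peg12* are the genes of the *Peg3* and *Snrpn* imprinted domains examined here. They were taken by name from a table of gene expression, as 7 of its 26127 rows, all on mouse chromosome 7. The question was how each of them behaved in embryonic stem cells (ESCs) after deletion of *Dnmt1*, the gene of the methyltransferase that copies DNA methylation onto newly replicated DNA.

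In an imprinted domain the maternal and the paternal copy of a gene carry different DNA methylation, set in the germ line at a control region and kept through cell division, and usually 1 parental copy is transcribed. The control regions of the *Peg3* and *Snrpn* domains are methylated on the maternal chromosome. Most protein-coding genes near them, *Peg3*, *Usp29*, *Snrpn*, *Ndn*, *Magel2*, *Peg12* and *Mkrn3*, are known to be transcribed from the unmethylated paternal copy, whereas *Zim1* is known as a maternally expressed gene. The genes of the *Snrpn* domain correspond to the human region that is lost in Prader-Willi syndrome. The table gives 1 value per gene for both parental copies together, so expression from each copy was not analysed here.

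Ribosome-depleted total RNA was sequenced from mouse ESCs that carry *Dnmt1* between loxP sites in both genotypes (*Dnmt1* loxP/loxP, strain C57BL/6 in the methods, background E14 in the labels), grown with LIF in serum, with or without feeder cells. Cre was induced with tamoxifen to delete *Dnmt1*. There were 17 libraries labelled wild type (WT) and 17 labelled *Dnmt1* knockout (KO), at days 0, 1, 3, 6, 9, 11, 17 and 25, with 2 libraries for each genotype and day and 3 at day 1. There was also 1 library of *Dicer* KO cells, a line made from the same ESCs by CRISPR/Cas9. The sources used here do not say whether WT cells received tamoxifen, or whether replicates were separate cultures, so the p-values below measure the spread between libraries, which may be technical.

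Depth ranged from 24.3 to 72.1 mega-reads per library, and 5.20 to 17.98 mega-reads of these lay in gene exons. Values are in RPKM, that is, a gene's reads divided by its exon length in kilobases and by the library's depth in mega-reads. In 20 libraries, those of days 0, 3, 6 and 9 and the first 2 pairs of day 1, between 20.6% and 22.4% of reads fell in exons. In the other 15, those of days 11, 17 and 25, the third pair of day 1 and *Dicer* KO, this share was between 44.7% and 49.8%, so levels on either side of that boundary are not comparable. These sets were found in the data. *Dnmt1* was alike in both genotypes at day 0 and followed the labels at every later day but 6. On those later days it had between 14.1 and 34.8 RPKM in WT and between 2.58 and 8.13 RPKM in KO. The highest WT values were those of day 25, at 31.65 and 34.75 RPKM, against 14.1 to 17.4 RPKM in WT at days 11 and 17. At day 6 the libraries labelled WT had 3.22 and 3.40 RPKM and those labelled KO 20.2 and 20.4 RPKM, against their labels, and directions for day 6 below follow those labels.

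The control region of the *Peg3* domain lies around the start of *Peg3*, a gene on the minus strand (ENSMUSG00000002265.8, chromosome 7, 6656603 to 6683132 of build NCBIM37). The zinc finger protein YY1 is known to bind a row of repeated sites there when they are unmethylated. The word GCCATNTT, searched on both strands, occurred 12 times in the 5000 bases from 1000 before to 4000 after the start at 6683132, each time on the strand of the gene and within an intron. As many occurred in 0.0229% of the 69985 windows of this length around annotated starts, whose median was 1. A stretch with 3 of the 12 words is shown because these repeats mark the control region, with the words in capitals (NCBIM37, chr7:6680974-6681273, minus strand).

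*Peg3* control region: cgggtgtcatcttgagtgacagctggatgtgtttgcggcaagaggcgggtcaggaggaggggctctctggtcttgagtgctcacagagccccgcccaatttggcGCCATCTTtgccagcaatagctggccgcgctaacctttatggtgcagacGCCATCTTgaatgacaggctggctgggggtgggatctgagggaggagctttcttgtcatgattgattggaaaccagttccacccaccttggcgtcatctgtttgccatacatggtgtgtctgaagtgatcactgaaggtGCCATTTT

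The control region of the *Snrpn* domain lies at the downstream start of *Snrpn* (ENSMUSG00000000948.9, chromosome 7, 67127388 to 67285105, minus strand), at 67150042. ZFP57 is a zinc finger protein that binds methylated copies of the word TGCCGC and is known to keep imprints in ESCs. The word occurred 10 times, on either strand, in the window of 5000 bases around this start. As many were found in 0.0400% of the windows. Of these, 8 lay in introns, 1 in an exon and 1 upstream of the start. The *Peg3* window held 8 such words (as many in 0.181% of windows). The stretch shown holds 4 of the 10, in capitals, with GCGGCA where the word reads on the opposite strand (NCBIM37, chr7:67149487-67149786, minus strand).

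*Snrpn* control region: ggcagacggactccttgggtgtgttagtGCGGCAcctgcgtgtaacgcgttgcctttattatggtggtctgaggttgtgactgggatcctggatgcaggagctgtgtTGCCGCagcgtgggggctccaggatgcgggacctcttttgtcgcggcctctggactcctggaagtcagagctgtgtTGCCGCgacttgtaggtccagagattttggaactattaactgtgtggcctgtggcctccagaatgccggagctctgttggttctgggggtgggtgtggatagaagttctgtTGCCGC

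**Figure D1:**
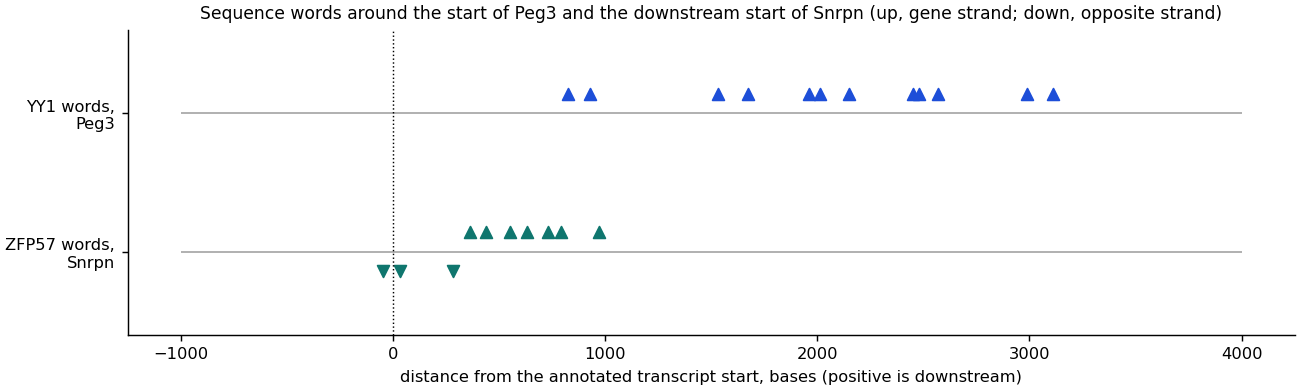
Positions of the YY1 word around the start of *Peg3* and of the ZFP57 word around the downstream start of *Snrpn*, as distance in bases from the annotated transcript start (dotted line); grey lines span the window searched, and triangles point up for the strand of the gene and down for the other. The 12 YY1 words lie downstream of the *Peg3* start on 1 strand, and the 10 ZFP57 words cluster within 1000 bases of the *Snrpn* start.

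*Peg3* and *Usp29* are transcribed in opposite directions from neighbouring starts, 164 bases apart in RefSeq (build GRCm38.p6, which is not the build of the expression table). Their promoter windows (250 bases before to 50 after the start) share 263 bases. The window of *Peg3* is shown because it is the shared promoter of a pair compared below. Capitals mark TGACGTCA, the binding word of CREB-type factors, a word chosen after the sequence was seen, which occurred in 1.79% of 32851 RefSeq promoters (GRCm38.p6, chr7:6730370-6730669, minus strand).

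*Peg3* and *Usp29* promoter: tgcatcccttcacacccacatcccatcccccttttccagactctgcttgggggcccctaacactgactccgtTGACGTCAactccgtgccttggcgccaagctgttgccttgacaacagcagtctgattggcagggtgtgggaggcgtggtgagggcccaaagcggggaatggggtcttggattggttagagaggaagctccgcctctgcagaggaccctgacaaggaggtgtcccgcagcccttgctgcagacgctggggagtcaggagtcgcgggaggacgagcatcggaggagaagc

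Levels per length are compared within each set of exon share. In the 10 libraries labelled WT of low share the median was 10.5 RPKM for *Snrpn* and 6.72 RPKM for *Peg3*. Their ranges overlapped only through the day 6 libraries labelled WT, with *Peg3* at 12.1 and 13.1 RPKM. In the other libraries labelled WT of low share *Peg3* was at most 8.51 RPKM and *Snrpn* at least 9.85 RPKM. *Ndn* had a median of 1.3 RPKM and overlapped with neither. *Peg12* followed with 0.270 RPKM, *Usp29* with 0.223 RPKM, *Zim1* with 0.0964 RPKM and *Magel2* with 0.0493 RPKM, and in this order the range of each overlapped with that of the next. In the 7 WT libraries of high share the medians were 30.8 RPKM for *Snrpn*, 22.4 RPKM for *Peg3* and 2.72 RPKM for *Ndn*. There *Peg12* (0.315 RPKM), *Zim1* (0.304 RPKM), *Usp29* (0.226 RPKM) and *Magel2* (0.209 RPKM) all overlapped. *Usp29*, *Zim1* and *Magel2* had no library above 1 RPKM. *Magel2* had 3 reads or fewer in 7 of the 34 libraries. The 4 genes *Peg3*, *Snrpn*, *Ndn* and *Peg12* passed the filter for testing (RPKM above 1 in at least 2 libraries). *Peg12* passed through 5 KO libraries alone, so a difference is built into its passing. Its tests are therefore given from a fit of all 26127 rows, as are those of *Usp29*, *Zim1* and *Magel2*, which were below the filter.

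**Figure D2:**
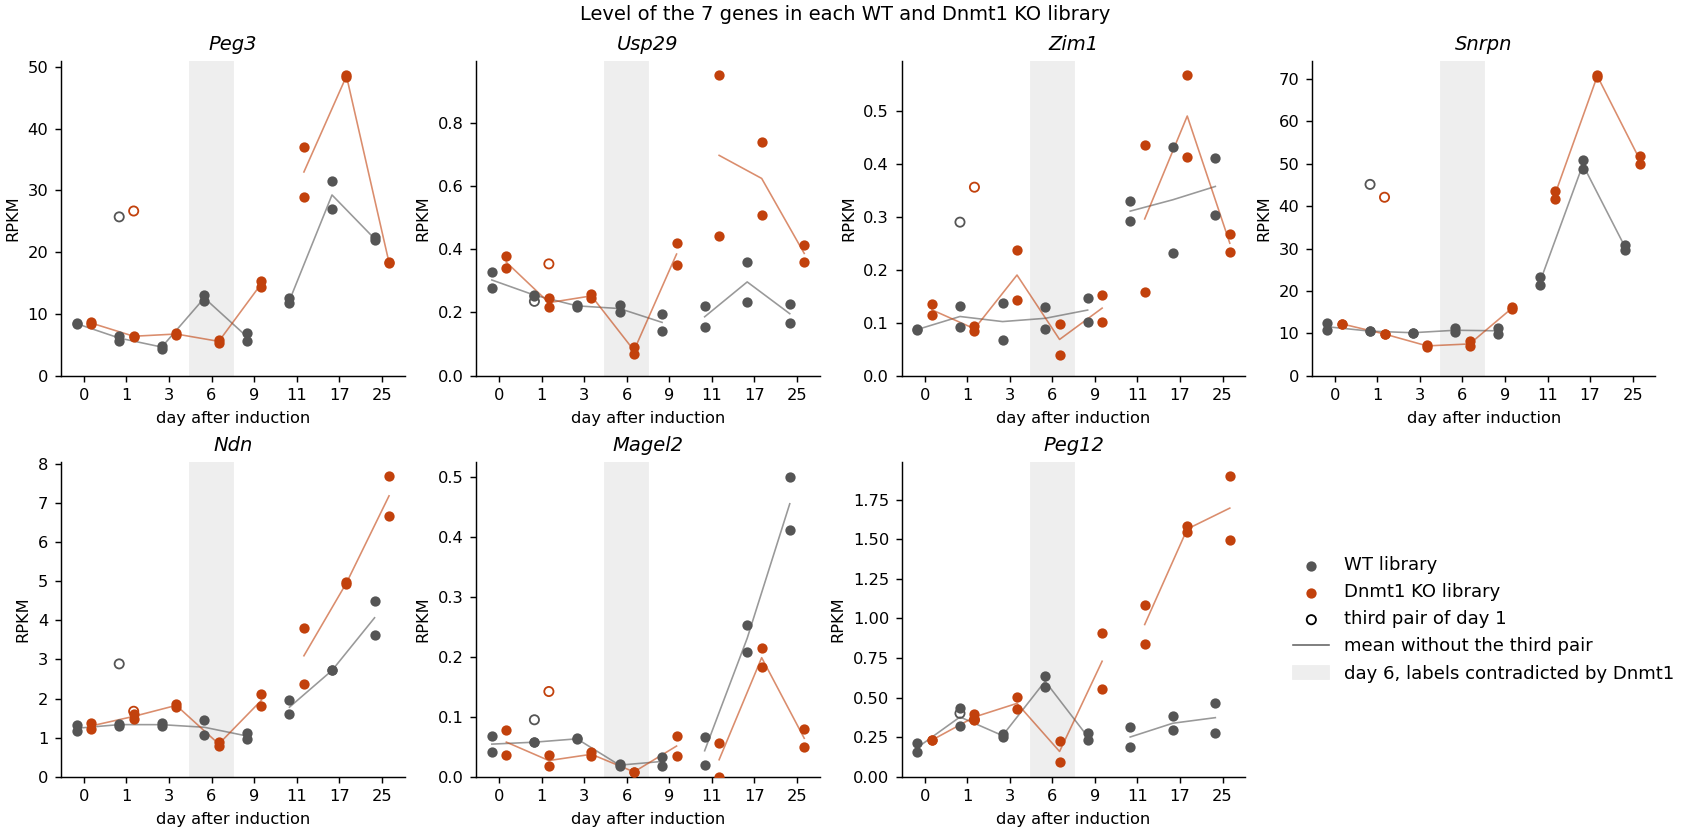
RPKM of each gene (vertical axes, each on its own linear scale from 0) by day after induction for WT (grey) and *Dnmt1* KO (orange) libraries; each point is 1 library, open circles are the third pair of day 1, and lines join group means without that pair within each set of libraries of like exon share. KO libraries of *Peg12* and *Ndn* lie above WT at days 3 and 9 to 25, and those of *Peg12* also at day 0. *Peg3* turns from above at day 17 to below at day 25, and *Magel2* at day 25 is at 0.411 and 0.500 RPKM in WT and at most 0.0793 RPKM in KO.

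Differences were tested as KO minus WT of the same day as log2(RPKM + 0.1), a scale that compresses differences of low genes, with limma over all genes and a call at a Benjamini-Hochberg adjusted p below 0.05. The third pair of day 1 differed in exon share from the other day 1 libraries and widened the spread that all days share, so each p is also given without that pair. In that pair *Peg3* stood at 25.7 (WT) and 26.7 RPKM (KO) and *Snrpn* at 45.1 (WT) and 42.1 RPKM (KO), while the other 4 libraries of day 1 lay from 5.68 to 6.49 RPKM for *Peg3* and from 9.79 to 10.6 RPKM for *Snrpn*. In the fit of all rows, which takes in all 7 members, none was called at days 0, 1 and 3 (0.0191%, 0.00383% and 0.746% of rows). At day 6 it called 1 of 7 (2.42%), at day 9, 1 (2.71%), at day 11, 2 (6.29%), at day 17, 3 (10.1%), at day 25, 4 (15.8%) and in the mean over days 3, 9, 11, 17 and 25, 4 (16.3%).

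In the filtered fit, no member was called at days 0, 1 and 3, where 0%, 0.00861% and 0.663% of the 11615 tested genes were called. At day 9, 1 of the 4 tested members was called (3.29% of all genes), at day 11, 1 (5.62%), at day 17, 2 (10.4%) and at day 25, 2 (20.9%). All of these were higher in KO. *Peg12* is the call at days 9 and 11 and *Peg12* and *Ndn* those at days 17 and 25, so nothing is read from these counts for *Peg12*, which entered through its high KO libraries. At day 6, 1 of 4 was called, lower in the libraries labelled KO (*Peg12*, with 2.84% of all genes called and 2.16% lower). In the mean over days 3, 9, 11, 17 and 25, 3 of 4 were called, all higher (18.9% of all genes called, 13.2% higher). These were *Peg3*, *Ndn* and *Peg12*. Nothing is read from this count for *Peg12* either, and the call of *Peg3* was lost in 17 of 34 fits without 1 library. Without the third pair 4 were called in the mean (58.5% of all genes). Without the third pair all 4 were also called at days 6, 9, 11, 17 and 25, and there 28%, 28%, 35.8%, 41% and 66% of the 11594 genes tested were called. At day 3, 2 of 4 were called without that pair (11.9% of all genes).

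The libraries of both genotypes did not overlap, with KO above WT, for 3 of the 7 members at day 0, 5 at day 3, 6 at day 9, 5 at day 11, 5 at day 17 and 4 at day 25. Among the 11615 genes that passed the filter this held for 21.5%, 34.9%, 39.1%, 31.9%, 42.6% and 49.5%. That set leaves out *Usp29*, *Zim1* and *Magel2*, which the counts of members include. The 3 members at day 0 were *Usp29*, *Zim1* and *Peg12*. KO lay wholly below WT for 2 members at day 3 (28.5% of the genes that passed the filter), 6 at day 6 by the labels (41.2%) and 3 at day 25 (33.4%).

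**Figure D3:**
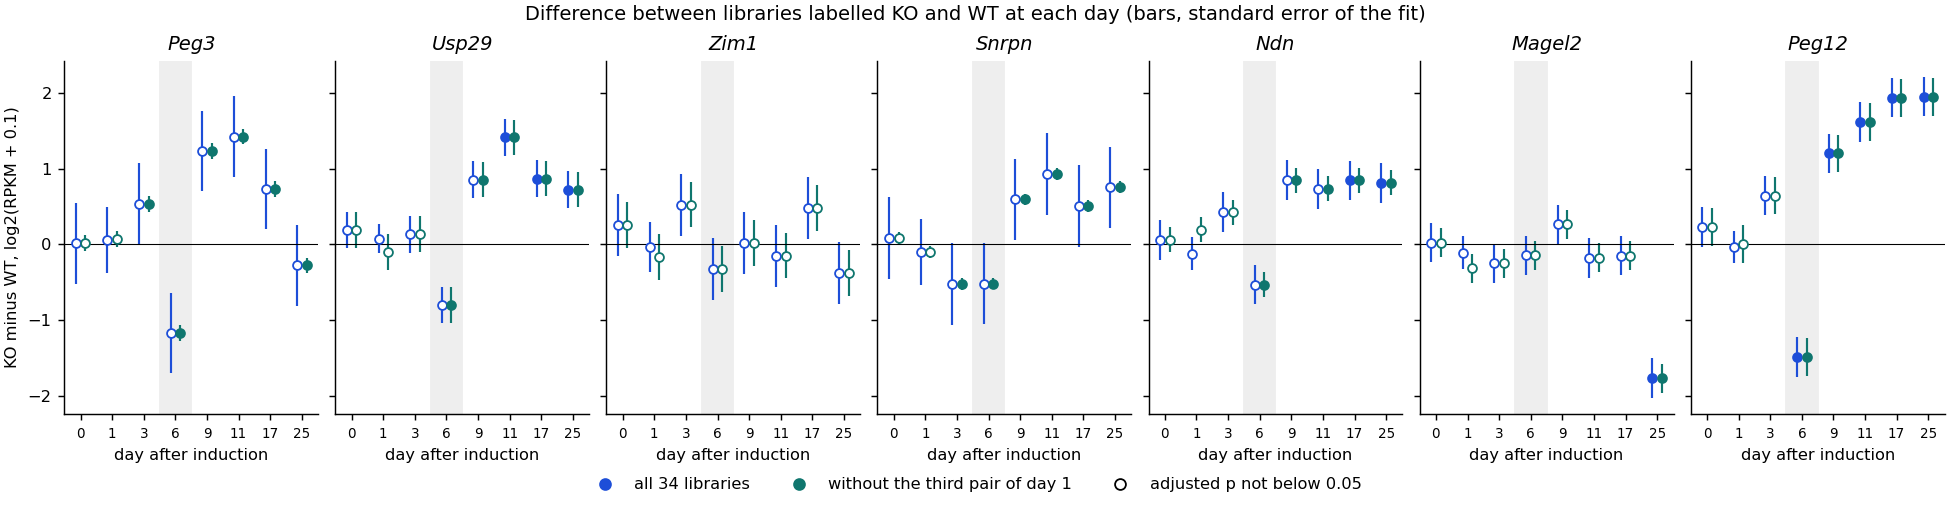
KO minus WT on the log2(RPKM + 0.1) scale (vertical axis) by day for the 7 genes, with all 34 libraries (blue) and without the third pair of day 1 (green); bars are the standard error of the limma fit and filled points have an adjusted p below 0.05 (*Usp29*, *Zim1* and *Magel2* from the fit of all rows). *Peg12* is drawn from the filtered fit, which it entered through KO libraries alone. Nothing is therefore read from its filled points at days 9 to 25, days at which the fit of all rows also called it. *Peg3* and *Snrpn* become filled at those days only without the third pair.

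*Peg3* encodes a zinc finger protein known for roles in maternal behaviour, growth and cell death. It was higher in KO than in WT at days 3, 9, 11 and 17 and lower at day 25, and day 6 is described apart. At day 0 it had 8.32 and 8.51 RPKM in WT and 8.39 and 8.65 RPKM in KO, and the groups overlapped. At day 3 the WT libraries had 4.38 and 4.88 RPKM and the KO libraries 6.62 and 6.86 RPKM. By day 9 KO stood at 14.4 and 15.3 RPKM, 2.36 times the WT mean of 6.31 ± 0.899 RPKM (SD, n = 2).

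The excess of *Peg3* in KO was greatest in ratio at day 11, with 28.9 and 37.0 RPKM in KO against 11.8 and 12.5 RPKM in WT, 2.71 times. At day 17 it was 1.66 times, with 48.3 and 48.7 RPKM in KO and 27.0 and 31.5 RPKM in WT. At day 25 the KO libraries had 18.2 and 18.4 RPKM and lay below the WT libraries, at 21.9 and 22.4 RPKM. None of these days was called with all libraries (adjusted p from 0.148 at day 11 to 1 at day 3). Without the third pair of day 1 the log2 differences of 0.54 at day 3 (adjusted p 0.00131), 1.23 at day 9 (1.1e-08), 1.42 at day 11 (7.2e-10), 0.73 at day 17 (6.83e-06) and -0.28 at day 25 (0.0236) were all called. The median of all genes at day 25 was 0.126 higher in KO, and the *Peg3* difference stands against that. At that day 44.7% and 45.1% of reads fell in exons in WT, and 49.8% and 49.4% in KO. The part of this in the differences of day 25 was not tested. The change of direction was tested as the effect at day 25 minus the effect at day 9. It was -1.51 (SE 0.75), which was not called with all libraries (adjusted p 0.278, 7.25% of all genes called) and was called without the third pair (1.35e-07, 49.1% called). Averaged over days 3, 9, 11, 17 and 25, *Peg3* rose by 0.73 (SE 0.24, limma adjusted p 0.0337), and this call was lost in 17 of the 34 fits that left out 1 library. These are bulk libraries, in which fewer cells that express a gene and less RNA per cell cannot be told apart.

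*Usp29*, a ubiquitin-specific protease gene that shares the *Peg3* promoter, had both KO libraries above WT at days 0, 3, 9, 11, 17 and 25. Its row (ENSMUSG00000051527.6, chromosome 7, 6913871 to 6916480, plus strand) is a single exon of 2610 bases that holds the coding sequence. The exons nearer the shared promoter are not counted in it. At day 0 it had 0.278 and 0.327 RPKM in WT and 0.339 and 0.3785 RPKM in KO. At day 3 it had 0.218 and 0.2235 RPKM in WT and 0.246 and 0.258 RPKM in KO. Neither day 0 nor day 3 was called in the fit of all rows. At day 9 it had 0.142 and 0.195 RPKM in WT (9 and 36 reads) and 0.351 and 0.418 RPKM in KO (32 and 47 reads). At day 11 it had 0.153 and 0.219 RPKM in WT and 0.443 and 0.951 RPKM in KO, with the KO libraries far apart but both above WT. In the fit of all rows it rose at day 11 (1.41, SE 0.24, limma adjusted p 0.000729, 6.29% of all rows called), at day 17 (0.87, 0.0237, 10.1% called) and at day 25 (0.72, 0.0477, 15.8% called). The call at day 11 was kept in each of the 34 fits without 1 library, that at day 17 was lost without the first WT or the second KO library of that day (adjusted p up to 0.267), and that at day 25 was lost in 26 of the fits (up to 0.3). Its mean rise over days 3, 9, 11, 17 and 25 was 0.80 (SE 0.11, 1.82e-05, 16.3% of all rows called). By voom on recovered reads the calls at days 17 and 25 were lost (adjusted p 0.0857 and 0.22). At day 25, when *Peg3* was below WT in KO, *Usp29* had 0.360 and 0.413 RPKM in KO and 0.166 and 0.226 RPKM in WT. Whether the pair differed from each other was not tested.

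*Zim1* is a zinc finger gene (ENSMUSG00000002266.9, chromosome 7, 6628154 to 6649161, minus strand) and the maternally expressed member of the domain. Its groups overlapped at days 1, 6, 9, 11 and 17. KO lay above WT at day 0, with 0.114 and 0.135 RPKM against 0.0866 and 0.0880 RPKM, and at day 3, with 0.143 and 0.237 RPKM against 0.0670 and 0.137 RPKM. At day 25 KO lay below, with 0.304 and 0.411 RPKM in WT and 0.233 and 0.268 RPKM in KO, from 26 to 45 reads. No day was called in any of the fits of all rows, and the mean difference over days 3, 9, 11, 17 and 25 was 0.10 (SE 0.18, limma adjusted p 0.891).

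*Snrpn* encodes SmN, a protein of the spliceosome core, from a transcript that begins at the control region shown above. It was lower in KO at day 3 and higher from day 9 to day 25. At day 0 it had 10.7 and 12.3 RPKM in WT and 12.1 and 12.3 RPKM in KO. At day 3 the WT libraries had 10.1 and 10.2 RPKM and both KO libraries were below them, at 6.76 and 7.27 RPKM. At day 9 KO had 15.8 and 16.2 RPKM, above WT at 9.85 and 11.3 RPKM.

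The ratio of *Snrpn* in KO to WT was 1.91 at day 11, with 41.7 and 43.6 RPKM against 21.5 and 23.2 RPKM. It was 1.42 at day 17, where KO had 70.4 and 71.0 RPKM against 48.8 and 50.8 RPKM, the highest levels of both genotypes among the libraries of high exon share. At day 25 it was 1.69, with 49.98 and 51.9 RPKM against 29.6 and 30.8 RPKM. Replicates of a group thus differed little beside the distance between genotypes. With all libraries no day was called (adjusted p from 0.368 to 1), nor was the mean of 0.45 (SE 0.24, 0.228). Without the third pair of day 1 the limma adjusted p was 8.87e-05 at day 3 (log2 difference -0.52), 6.68e-06 at day 9 (0.59), 7.23e-09 at day 11 (0.93), 1.97e-05 at day 17 (0.51) and 7.07e-08 at day 25 (0.75). The effect at day 9 minus that at day 3 was 1.12, with an adjusted p of 1 with all libraries and 2.35e-06 without the third pair (2.85% of all genes called). By voom on recovered reads *Snrpn* was called at day 11 (0.0125) and in the mean (0.00683).

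*Ndn* encodes necdin, a protein of the MAGE family expressed in neurons and known to restrain the cell cycle. Its single exon spans 69493163 to 69494814 on the plus strand (ENSMUSG00000033585.4). The RefSeq promoter is shown with the NRF1 word GCATGCGC in capitals, a word chosen after the sequence was seen and present in 2.71% of promoters (GRCm38.p6, chr7:62348027-62348326, plus strand).

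*Ndn* promoter: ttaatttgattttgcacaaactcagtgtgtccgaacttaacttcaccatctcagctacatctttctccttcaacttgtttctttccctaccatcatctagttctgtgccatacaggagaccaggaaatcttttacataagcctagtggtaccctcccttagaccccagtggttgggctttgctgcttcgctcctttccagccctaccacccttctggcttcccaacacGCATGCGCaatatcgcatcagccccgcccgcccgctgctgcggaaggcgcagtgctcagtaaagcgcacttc

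*Ndn* was above WT in both KO libraries at each of days 3, 9, 11, 17 and 25. At day 9 it had 1.80 and 2.11 RPKM in KO and 0.971 and 1.11 RPKM in WT. At day 17 it had 4.93 and 4.99 RPKM in KO and 2.72 RPKM in either WT library, and it rose by 0.84 log2 units (SE 0.26) with a limma adjusted p of 0.04 (0.000294 without the third pair). At day 25 the KO libraries had 6.67 and 7.70 RPKM and the WT libraries 3.63 and 4.51 RPKM, a rise of 0.81 (SE 0.26, 0.0291 and 0.000218). Days 9 and 11 were called only without the third pair (0.000573 and 0.00153, against 0.0898 and 0.119). The ratio of KO to WT was between 1.74 and 1.88 at days 9 to 25, while the level itself was higher at day 25 than at day 11 in both genotypes. The mean rise over days 3, 9, 11, 17 and 25 was 0.73 (SE 0.12, limma adjusted p 5.95e-05) and was called in each fit that left out 1 library. Of the single days, the call at day 17 was lost in 8 of those 34 fits, those without a library of day 3 or day 17 (adjusted p up to 0.181), and that at day 25 in 4, those without a library of day 25 (up to 0.236).

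*Peg12* (also called *Frat3*) encodes a protein of the FRAT family, which binds the kinase GSK3 in the Wnt pathway. It is a single exon from 69606757 to 69609396 on the minus strand (ENSMUSG00000070526.2). The promoter is shown because *Peg12* was the member called at each of days 9, 11, 17 and 25. None of the 4 words searched occurs in it, and its 12 CpG dinucleotides compare with a median of 7 over all RefSeq promoters (GRCm38.p6, chr7:62464461-62464760, minus strand).

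*Peg12* promoter: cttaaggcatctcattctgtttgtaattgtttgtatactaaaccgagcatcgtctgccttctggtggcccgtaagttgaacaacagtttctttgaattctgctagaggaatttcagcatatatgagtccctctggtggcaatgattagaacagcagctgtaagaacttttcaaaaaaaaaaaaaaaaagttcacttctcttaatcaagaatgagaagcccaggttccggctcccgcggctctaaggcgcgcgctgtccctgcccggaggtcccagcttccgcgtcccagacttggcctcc

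*Peg12* was low in WT throughout, and both KO libraries lay above WT at days 0, 3, 9, 11, 17 and 25. At day 0 it had 0.229 and 0.233 RPKM in KO against 0.154 and 0.215 RPKM in WT. At day 3 it had 0.426 and 0.501 RPKM against 0.253 and 0.267 RPKM. In the fit of all rows neither day 0 nor day 3 was called, while days 9, 11, 17 and 25 were. In WT it had between 0.154 and 0.638 RPKM, the top of which came from the libraries labelled WT at day 6. In KO it had 0.553 and 0.905 RPKM at day 9, against 0.234 and 0.273 RPKM in WT. At day 17 it had 1.54 and 1.59 RPKM against 0.294 and 0.381 RPKM, 4.63 times, and at day 25 it had 1.5 and 1.90 RPKM (121 and 149 reads) against 0.279 and 0.467 RPKM (20 and 37 reads), 4.55 times. In the fit of all rows the log2 rise was 1.2 at day 9 (SE 0.25, limma adjusted p 0.008), 1.61 at day 11 (0.000233), 1.93 at day 17 (1.62e-05) and 1.95 at day 25 (1.92e-05), and each was called without the third pair as well. Its mean rise over days 3, 9, 11, 17 and 25 was 1.47 (SE 0.11, 6.18e-09). When each library was left out of the filtered fit in turn, the call at day 9 was lost without the first KO or the second WT library of that day (adjusted p up to 0.265). Those of days 11, 17 and 25 were kept, but *Peg12* entered that fit through KO libraries alone, so nothing is read from this. For *Peg12* the fit of all rows was not repeated without each library.

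*Magel2*, a MAGE family gene whose product regulates ubiquitination in endosomal protein recycling, ran against its neighbours at day 25. It lies between *Ndn* and *Peg12* (ENSMUSG00000056972.5, 69521865 to 69526526, plus strand). Up to day 11 no WT or KO library exceeded 0.142 RPKM, and a level of 3 reads was between 0.00893 and 0.0265 RPKM. At day 17 it had 0.209 and 0.254 RPKM in WT and 0.182 and 0.215 RPKM in KO, with overlapping groups. At day 25 the WT libraries had 0.411 and 0.500 RPKM (52 and 70 reads) and the KO libraries 0.0490 and 0.0793 RPKM (7 and 11 reads). In the fit of all rows it fell by 1.76 (SE 0.26, limma adjusted p 9.49e-05), and without the third pair the adjusted p was 1.99e-06. This call was kept without any 1 library. In the mean over days 3, 9, 11, 17 and 25 *Magel2* fell by 0.41 (SE 0.12, 0.017), the only member called lower there. The days of this mean were not alike. KO lay below WT at days 3 and 25 and above at day 9, the groups overlapped at days 11 and 17, and only day 25 was called. The effect at day 25 minus that at day 9 was -2.02 (0.00222, 5.39% of all rows called), with 2 reads in 1 WT library of day 9. In WT, *Magel2* rose by 1.97 from day 11 to day 25 (1.87e-05, 19.5% of all rows called).

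At day 6 the libraries as labelled ran opposite to days 9 and 11 for *Peg3*, *Usp29*, *Snrpn*, *Ndn* and *Peg12*. *Peg3* had 12.1 and 13.1 RPKM in the libraries labelled WT and 5.27 and 5.83 RPKM in those labelled KO. *Peg12* had 0.568 and 0.638 RPKM against 0.0948 and 0.224 RPKM, and fell by 1.48 (SE 0.25, limma adjusted p 0.00128 in the fit of all rows). In the filtered fit this call was lost without the second library labelled KO (0.0663). *Snrpn* had 10.2 and 11.18 RPKM in the libraries labelled WT and 6.89 and 8.07 RPKM in those labelled KO, the same direction as at day 3 by the labels. Read by *Dnmt1* level instead, *Snrpn* at day 6 was higher where *Dnmt1* was low, as at days 9 to 25 and unlike day 3.

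The members also changed with time in WT. From day 0 to day 9 no member was called with all libraries (0.0947% of all genes), and without the third pair *Peg3* was lower at day 9 by 0.42 (adjusted p 0.00873, with 16.4% of all genes called). From day 11 to day 25 *Ndn* rose by 1.15 (SE 0.26, limma adjusted p 0.00184) where 28.7% of all genes were called (68.6% without the third pair). Over the same interval the log2 differences in WT were 0.86 for *Peg3* (adjusted p 0.25, 2.7e-07 without the third pair), 0.43 for *Snrpn* (0.611 and 4.58e-05) and 0.43 for *Peg12* (0.282 and 0.222 in the fits of all rows).

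Markers of other cell types moved with some of these differences. Of the 13 fibroblast markers, which feeder cells would carry, 8 were tested and none was called at day 3 or day 9, although all 8 were higher in KO at both days (medians 0.695 and 0.873, against 0.0182 and 0.0227 over all genes). Without the third pair 4 and 7 were called (11.9% and 28% of all genes). Their summed level was already higher in KO at day 0, with 16.6 and 20.3 RPKM in WT and 21.7 and 23.3 RPKM in KO. At that day 7 of the 8 tested were higher in KO. In the first 2 pairs of day 1 it was 18.5 and 19.1 RPKM in WT and 23.16 and 24.15 RPKM in KO. At day 3 it was 15.2 and 17.7 RPKM in WT and 28.4 and 29.6 RPKM in KO. At day 9 it was 22.1 and 26.3 RPKM in WT and 51.4 and 58.9 RPKM in KO. At day 6 it was 16.5 and 20.2 RPKM in the libraries labelled WT and 9.47 and 9.90 RPKM in those labelled KO, where *Dcn* and *Twist2* were at 0. In the libraries of high exon share it was between 1.36 and 3.16 RPKM in WT and KO, and at least 1 of *Lum*, *Postn* and *Dcn* was at 0 in all but 1 of them. At day 11, where both KO libraries of *Peg3*, *Snrpn*, *Ndn* and *Peg12* were above WT, it was 2.97 and 3.16 RPKM in WT and 1.36 and 1.79 RPKM in KO. The markers were not of 1 direction at day 11, as 6 of the 8 tested were higher in KO (median 0.332) and *Thy1* fell (5.62% of all genes called). Without the third pair 4 were called higher and 1 lower (35.8% of all genes called). The part of fibroblast RNA in the differences of the members was not tested.

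Of the 8 trophoblast markers, 5 were tested. All 5 had positive differences at days 3 and 9, with 1 called at each of days 3, 9 and 25 (0.663%, 3.29% and 20.9% of all genes). All 5 rose at days 11 and 17 (5.62% and 10.4% of all genes called), with medians of 1.73 and 2.23 against 0.0666 and 0.0941 over all genes. Their summed level at day 17 was 60.9 and 71.4 RPKM in WT and 298 and 307 RPKM in KO. By day 25 the sums were close, 44.3 and 45.2 RPKM in WT against 47.1 and 49.5 RPKM in KO. *Krt7*, *Krt8*, *Krt18*, *Hand1* and *Tcfap2c* were called at 2 or more days. *Elf5*, a defining trophoblast gene, was above 0 in every KO library of days 3, 9, 11 and 17. It was at 0 in both WT libraries of days 9, 17 and 25 and in 1 KO library of day 25. However, it was above 0 in both WT libraries of day 11 and in some WT libraries of days 0, 1 and 3. *Elf5*, *Cdx2* and *Gata3* were below the filter, and no difference is read from them. Of the 8 neural markers with a row, 4 were tested. *Tubb3* rose at days 17 and 25 (1.19 and 1.84), *Neurod1* fell by 0.83 at day 11 and fell by 1.76 at day 25, and *Nes* also fell at day 25, so that 1 rose and 2 fell there. Of the 8 ESC markers none was called before day 25. At day 25, 7 of the 8 were higher in KO (median 0.382 against 0.126 over all genes). *Nanog* rose and *Utf1* fell (20.9% of all genes called). Without the third pair 7 were called higher and 1 lower (66% of all genes called). Their summed level at day 25 was 673.5 and 685.3 RPKM in WT and 963.9 and 950.3 RPKM in KO. The part of these cell types in the levels of the members was not tested.

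**Figure D4:**
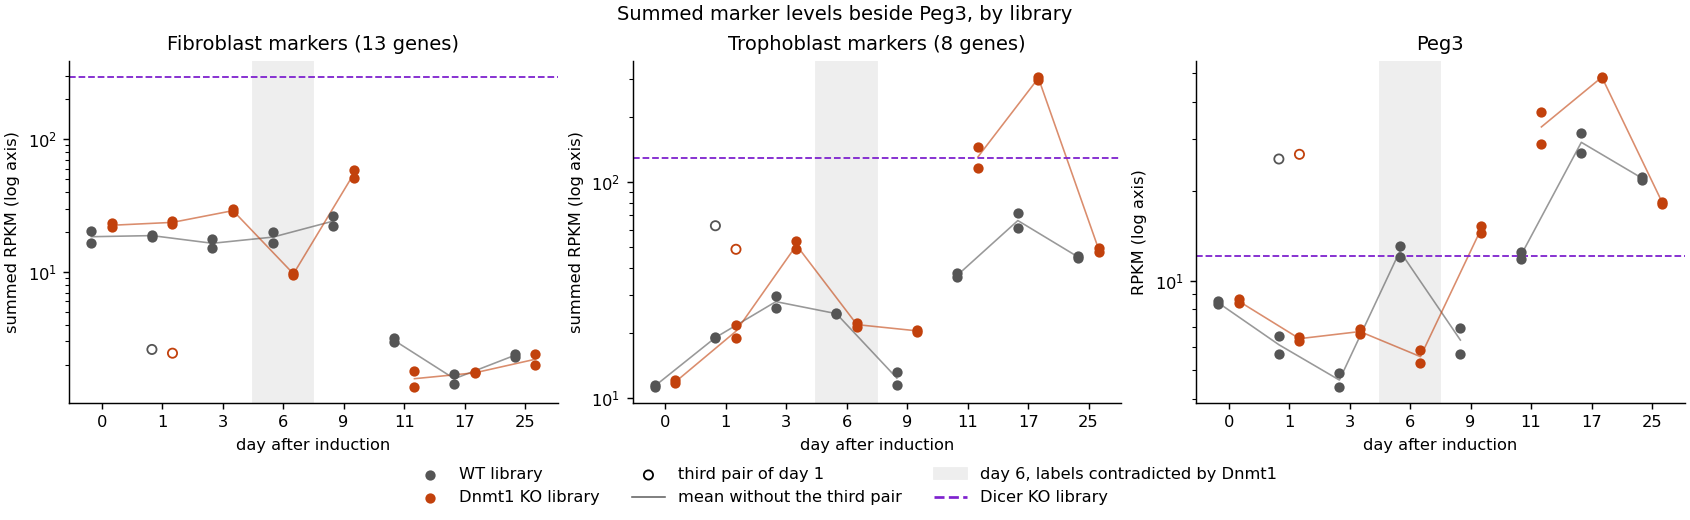
Summed RPKM of 13 fibroblast and 8 trophoblast markers and RPKM of *Peg3* (vertical log axes) by day in WT (grey) and *Dnmt1* KO (orange) libraries; points are libraries, open circles the third pair of day 1, lines group means within a set of like exon share, and dashes the *Dicer* KO library. Fibroblast markers drop to between 1.36 and 3.16 RPKM in the libraries of high exon share. Trophoblast markers in KO peak at day 17 and are near WT at day 25. Among the libraries of high exon share *Peg3* is highest at day 17 in both genotypes, as is *Snrpn*, which is not drawn.

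The genes beside the domains were taken from a list. None of the *Peg3* neighbours on the list (*Zim2*, *Zim3*, *Zfp264* and antisense transcripts of *Peg3*) was analysed here. Of the *Snrpn* neighbours, 4 were tested. *Mkrn3*, a paternally expressed ubiquitin ligase gene, was not called at any day (mean difference -0.13, SE 0.09, limma adjusted p 0.429), nor without the third pair (0.178). *Ube3a*, the ubiquitin ligase gene that is imprinted in neurons, had 21.9 and 24.5 RPKM in KO and 15.2 and 16.1 RPKM in WT at day 25 (0.56, adjusted p 0.425, 1.68e-06 without the third pair) and was not called at any day with all libraries. *Atp10a*, a phospholipid transporter gene, rose at day 11 (0.81, 0.00237), a call lost by voom (0.105), with median centring (0.098) and with only the groups compared (0.0966). The row of the *Snrpn* antisense host transcript (*C230091D08Rik*, *Snhg14* in RefSeq) had 3 reads or fewer in every library. Of 9 biallelic genes beside the domain, 5 were tested. *Herc2* and *Tubgcp5* fell at day 25 (log2 differences -1.14 and -0.61, 20.9% of all genes called), with a list median of -0.554 against 0.126 over all genes.

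Paternally expressed genes of other domains, whose control regions are also methylated on the maternal copy, were examined as well. Of the 12 on the list 8 were tested. At days 9, 11, 17 and 25, 3, 3, 5 and 2 of them rose (2.46%, 4.37%, 9.13% and 9.6% of all genes rose) and none fell, with medians of 0.73, 0.876, 1.34 and 0.411. In the mean over days 3, 9, 11, 17 and 25, 6 of 8 rose (13.2% of all genes rose). *Impact*, *Plagl1*, *Sgce* and *Nnat* were called at 2 or more days. *Plagl1*, a zinc finger gene, rose by 2.98 at day 17 and *Impact*, a regulator of translation, by 1.79. Of the 12 genes that keep or set imprints, all tested, *Dnmt3a* fell by 1.89 at day 17 (10.4% of all genes called). At day 25 *Dnmt3b* fell by 1.17 and *Trim28* by 0.67, while *Dppa3* (1.16) and *Morc1* (1.23) rose (20.9% of all genes called). *Zfp57* and *Yy1*, whose words are marked above, were not called at any day.

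The *Dicer* KO line gave 1 library, so its values have no replicate check. Set beside the 7 WT libraries of high exon share, *Snrpn* was below all of them, at 8.14 RPKM against a range of 21.5 to 50.8 RPKM. *Ndn* was above all of them, at 6.39 RPKM against 1.6 to 4.51 RPKM, as was *Peg12* at 0.617 RPKM against 0.187 to 0.467 RPKM. *Usp29* had 1 read and *Magel2* 0 reads, both below every WT library, as was *Zim1* with 5 reads, while *Peg3*, at 12.1 RPKM, was within the WT range of 11.8 to 31.5 RPKM. Of all genes tested, 30.9% lay above and 26.9% below every one of these WT libraries. The fibroblast markers summed to 296 RPKM in this library, against 1.43 to 3.16 RPKM in WT, and the trophoblast markers to 129 RPKM against 36.0 to 71.4 RPKM. Their part in the levels of the members was not tested.

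The genes whose log2 levels, centred within each day and set of exon share, were most like each member over the 34 libraries were named by a fixed rule, as a description. Libraries of 1 day share their day and set but differ in depth, by up to 24.3 against 70.7 mega-reads at day 9. Both genotypes were centred together, so the genotype labels do not enter r. For *Peg3* they were *Ass1* (Pearson r 0.972), *AI314180* (0.967) and *Sulf1* (0.966). For *Snrpn* they were *Glod5* (0.910), *Rtl1* (0.883) and *Zp3* (0.882). *Ndn* was most like *Vim* (0.932), *Sap30bp* (0.925) and *Gm11127* (0.922), and *Peg12* like *Fkbp6* (0.971), *S100a6* (0.965) and *Hormad1* (0.963). None of these genes is another member. Among the members, r was 0.854 between *Ndn* and *Peg12*, 0.791 between *Snrpn* and *Peg12*, 0.714 between *Snrpn* and *Ndn*, and between 0.641 and 0.696 for *Peg3* with the other 3.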

How the data were processed

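Total RNA depleted of ribosomal RNA was measured in 35 libraries of mouse ESCs. According to the methods, the authors trimmed with Trim Galore, aligned to NCBIM37 with TopHat and quantified in SeqMonk, after poorly mapped reads were dropped. The submitters' processing notes name Trim Galore 0.3.5 and TopHat2 2.0.11; the study's list of software names a later Trim Galore. Their deposited table holds linear RPKM per gene and library, although the methods name log2 RPM, so the tests were run on log2(RPKM + 0.1). The authors called genes with DESeq2 and an intensity filter, which were not used here. Whether counting used the strand is not given in the sources used here, so antisense reads, as at *Peg3*, cannot be told apart.

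Exon lengths came from GENCODE vM1 (99.78% of rows). Low values (below 20 reads) were whole multiples of 1 read, within 0.1, for at least 99.63% per library, which gave the depth. The model of genotype and day means was tested by limma (version 3.58.1, R version 4.3.3), using lmFit and eBayes with a trend, over 34 libraries; the *Dicer* KO library was described only. A floor of 3 reads covers counting error only. Data were simulated for real genes, with the same spread beyond counting error for every gene and changes only in genes with a mean above 1 RPKM. The rates therefore do not cover *Peg12*, *Usp29*, *Zim1* or *Magel2*, whose means were lower. With all libraries, the day 9 fit recovered 3% of genes changed by 1 log2 unit and 81% of those changed by 2, with 0% false calls among the calls. Without the third pair of day 1 it recovered 78% and 100%, with 8.72% false calls among the calls. Older symbols were matched through RefSeq synonyms. Python 3.11.15 with numpy 2.4.6, pandas 2.3.3 and matplotlib 3.10.9 was used.

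The members and gene lists were chosen with earlier results of these data known. Named genes were *Dnmt1*, the 7 members, list genes called at 2 or more days, and the 3 genes most like each tested member; other genes named were chosen after their values were seen. Alternatives were another pseudocount, no filter, voom on recovered reads, median centring, only the groups compared, a replicate block, and fits without the third pair of day 1, without day 6 or without each library.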

Additional observations from a re-analysis of the deposited data

Results flagged for a closer look

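Several members had effects that differed between days. The effect at day 25 minus that at day 9 was -1.51 for *Peg3*, whose KO libraries were all above WT at day 9 and all below at day 25 (limma adjusted p 0.278, 1.35e-07 without the third pair of day 1), and -2.02 for *Magel2* (0.00222 and 5e-05). At day 9 *Magel2* had 2 and 11 reads in WT and 7 and 11 reads in KO, too few to read a direction from that day. The effect at day 9 minus that at day 3 was 1.12 for *Snrpn*, whose KO libraries were all below WT at day 3 and all above at day 9 (1 and 2.35e-06).

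The effect at day 9 minus that between the libraries as labelled at day 6, where *Dnmt1* contradicts the labels, was 2.40 for *Peg3* (0.0514 and 2.26e-11), 1.65 for *Usp29* (0.00408 and 0.00134), 1.11 for *Snrpn* (0.56 and 6.03e-08), 1.38 for *Ndn* (0.0207 and 6.57e-05) and 2.68 for *Peg12* (3.8e-05 and 3.22e-05 in the fits of all rows). The call of *Ndn* was lost with a pseudocount of 1 (0.0603) and in each of 4 fits without 1 library of days 6 and 9 (up to 0.121), those without the first KO or the second WT library of either day. The contrasts with days 3 and 6 were chosen after the data were seen.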

How the results depend on the processing

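Counts of called members are of 4 tested genes, or 7 with no filter, and the share of all genes called in the same fit moved with them, so the counts alone do not set the members apart. With each comparison fitted on its own groups, 4 were called at each of days 3, 6, 9, 17 and 25, 2 at day 11, 1 for day 25 minus day 9, 1 for WT day 9 minus day 0 and 3 for WT day 25 minus day 11 (in this order 18.5%, 31.9%, 36.5%, 24.7%, 62.7%, 2.68%, 52.8%, 20.9% and 64.9% of all genes). Without the third pair of day 1 these were 2 at day 3, 4 at each of days 6 to 25, 1, 1 and 3 (from 11.9% at day 3 to 68.6%). Median centring gave 2 at day 6, 3 at day 9, 2 at day 11, 1 for day 25 minus day 9 and 2 for WT day 25 minus day 11 (7.82%, 8.16%, 14.2%, 24.3% and 51.4%). By voom on recovered reads there were 2 at day 6, 2 at day 9, 4 at day 11, 1 for day 25 minus day 9 and 2 for WT day 25 minus day 11 (6.51%, 7.3%, 15.6%, 21.8% and 51.6%). With no filter there were 2 at day 11, 4 at day 25, 1 for day 25 minus day 9 and 2 for WT day 25 minus day 11 (6.29%, 15.8%, 5.39% and 19.5%). A pseudocount of 1 gave 1 for day 25 minus day 9 (9.85%), and leaving out the day 6 libraries gave 1 at day 17 (9.18%). Leaving out 1 library gave from 0 to 0 at days 0, 1 and 3, from 0 to 1 at day 6, from 0 to 2 at day 9, from 1 to 3 at day 11, from 1 to 2 at days 17 and 25, and from 2 to 3 in the mean.

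The replicate numbers mark no stated pairing, and the deviations of libraries with the same number correlated between -0.159 and 0.260 by day, so they were not treated as pairs. With a replicate block 3 members were called at day 3, 4 at each of days 6, 9, 11, 17 and 25, and 2 for day 25 minus day 9 (9.05%, then 24.9%, 24.9%, 33.3%, 38.6% and 64%, and 46.6% of all genes). *Ndn* had a difference between days 25 and 9 of -0.04, which turned to 0.16 with a pseudocount of 1 and 0.0096 with median centring and ranged from -0.188 to 0.117 without 1 library. The mean of *Zim1* ranged from -0.0055 to 0.206 without 1 library. The mean of *Peg3* was no longer called with no filter (adjusted p 0.053), without the day 6 libraries (0.051), with day 6 as labelled (0.288), from days 3 and 9 only (0.261) or from days 11, 17 and 25 only (0.194). *Ndn* at day 17 was lost without the day 6 libraries (0.0532), and *Peg12* at day 11 when only the groups compared were fitted (0.0588). Of 56 gene results under the other settings, 272 values kept their direction and call, 92 gained a call, 10 lost it and 2 turned sign. The causes were not tested.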
